A study of Homo sapiens with 9 samples.

Results

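GPX4, AIFM2, GCH1, DHODH, VKORC1L1, PRDX6, SECISBP2, MBOAT1 and MBOAT2 are genes whose products remove phospholipid peroxides or keep them from forming. These 9 genes were taken by name from the 58395 Ensembl identifiers counted, in a choice made with earlier results of these data known, and all 9 were among the 16761 genes left by the low-count filter. They were compared across the 3 siRNA groups of an experiment that asked how loss of the zinc transporter ZIP7, encoded by SLC39A7, changes gene expression. MDA-MB-231 cells, an established line from a breast cancer of the triple-negative class, were reverse-transfected with a non-targeting control siRNA (siNC) or with 1 of 2 single siRNAs against ZIP7 (siZIP7_1 and siZIP7_2), and RNA was taken 96 h later. Each group held 3 libraries, all from the same unedited line in the same medium, and no ferroptosis inducer is named in the labels of these libraries. The labels do not say whether the libraries came from separate cultures, so p-values measure the spread between these libraries, which may be technical.

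Ferroptosis is a cell death driven by iron-dependent peroxidation of polyunsaturated phospholipids. The main defence is GPX4, a selenoenzyme that spends glutathione to turn phospholipid hydroperoxides into harmless alcohols. Several systems work beside it. AIFM2 (also called FSP1), DHODH and VKORC1L1 keep coenzyme Q or vitamin K reduced so that these lipids can stop radical chains, GCH1 opens the synthesis of tetrahydrobiopterin, another radical trap, and MBOAT1 and MBOAT2 place monounsaturated fatty acids, which resist peroxidation, into phospholipids. SECISBP2 serves GPX4 indirectly, since it is needed to read selenocysteine into selenoproteins.

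The selenocysteine codon of GPX4 is shown first because it ties GPX4 to SECISBP2 and to the other selenoproteins described below. It is a TGA, otherwise a stop signal, at chr19:1105403-1105405 on the plus strand of GRCh38 in the coding exons of the gene. The stretches below are from GENCODE release 29 transcripts, 5′ to 3′, with the selenocysteine codon in capitals, and the paralogues GPX1 (chr3:49358132-49358134, minus strand) and GPX3 (chr5:151025469-151025471, plus strand) are given for comparison.
GPX4: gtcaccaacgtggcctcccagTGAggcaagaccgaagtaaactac
GPX1: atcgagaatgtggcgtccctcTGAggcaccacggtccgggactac
GPX3: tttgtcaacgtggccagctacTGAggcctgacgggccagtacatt
SECISBP2 binds a hairpin in the 3′ UTR of such mRNAs, the SECIS element, whose known core letters are ATGA and a run of A in the apical loop. In GPX4, 1 stretch with that spacing was found, starting 64 bases after the stop codon at chr19:1106637-1106655, with these letters in capitals.
GPX4 SECIS core: ATGAcggcctgcctgcAAA
The counts are per gene, so they do not separate the mitochondrial, cytosolic and nuclear forms of GPX4.

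Between 24153785 and 30454419 reads per library were assigned to genes. SLC39A7, the targeted gene, lay between 320.7 and 343 CPM (reads of a gene scaled to library size with edgeR's TMM factors) with siNC, between 32.9 and 38.6 CPM with siZIP7_1 and between 17.6 and 20.5 CPM with siZIP7_2. The labelled cell line was checked against VIM, CD44 and AXL, which summed to between 7954 and 8574 CPM with siNC, between 4761 and 5090 CPM with siZIP7_1 and between 5612 and 5801 CPM with siZIP7_2. VIM made up most of this sum, while CD44 averaged 816, 465 and 1793 CPM in the same order of groups. ESR1 and PGR, receptors whose absence is part of the triple-negative definition, had means of at most 0.501 CPM and 0.0452 CPM in any group. ERBB2, the other receptor of that definition, was detected, at means of 74.2, 88.0 and 59.3 CPM in the same order of groups. ESR1, PGR, ERBB2, CDH1 and EPCAM summed to 78.7 to 82.8 CPM, 97.3 to 106 CPM and 62.5 to 67.6 CPM in that order. Most of that sum was ERBB2, and CDH1 alone averaged 0.466, 4.18 and 0.998 CPM. Of the 5 leukocyte, endothelial and red cell markers, PTPRC, PECAM1 and CDH5 passed the low-count filter, while CD3E and HBB were at or near 0. The 5 markers summed to 3.27–3.74 CPM in siNC, 0.996–1.28 CPM in siZIP7_1 and 9.50–10.9 CPM in siZIP7_2 libraries. They did not move together. In the same order of groups PECAM1 averaged 3.02, 0.102 and 8.63 CPM, PTPRC 0.402, 0.875 and 0.327 CPM, and CDH5 0.0119, 0.135 and 1.27 CPM. The share of reads that fell on no gene also differed, from 7.43% to 8.28% with siNC, from 7.80% to 9.62% with siZIP7_1 and from 9.99% to 11.5% with siZIP7_2. The part of these markers and shares in the results below was not tested.

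Levels were compared between genes as RPKM, CPM per kilobase of annotated exon. In siNC cells the peroxidases stood far above the rest, with PRDX6 at 135 ± 3.39 RPKM and GPX4 at 74.2 ± 1.43 RPKM (SD, n = 3 each). AIFM2 followed at 14.2 ± 0.437 RPKM, then VKORC1L1 at 7.203 ± 0.0520 RPKM, SECISBP2 at 6.46 ± 0.142 RPKM and GCH1 at 4.41 ± 0.431 RPKM (SD, n = 3 each). MBOAT2 at 3.84 ± 0.285 RPKM, DHODH at 2.87 ± 0.150 RPKM and MBOAT1 at 2.59 ± 0.160 RPKM came last (SD, n = 3 each), and the only neighbours in this order whose libraries overlapped were GCH1 and MBOAT2. The order changed with each siRNA. With siZIP7_2, GPX4 (81.0 ± 1.21 RPKM) was above PRDX6 (58.7 ± 1.27 RPKM, SD, n = 3 each), the reverse of siNC, and the libraries of the pair did not overlap in any group. GCH1 moved from sixth to the fourth place with both siRNAs, and DHODH became the lowest with siZIP7_1. With siZIP7_2, DHODH and MBOAT1 overlapped, at 0.983 ± 0.0882 RPKM and 0.939 ± 0.146 RPKM (SD, n = 3 each). SECISBP2 is the member whose place depended most on gene length. Over the exons of basic coding transcripts alone, a length chosen after seeing the data, it was at 17.2 ± 0.377 RPKM in siNC (SD, n = 3), above AIFM2 at 15.7 ± 0.483 RPKM (SD, n = 3). With that length GCH1 was at place 6 in siNC and at place 5 with each siRNA. DHODH and MBOAT1 then did not overlap with siZIP7_2, at 1.41 ± 0.126 RPKM and 0.939 ± 0.146 RPKM (SD, n = 3 each).

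**Figure D1:**
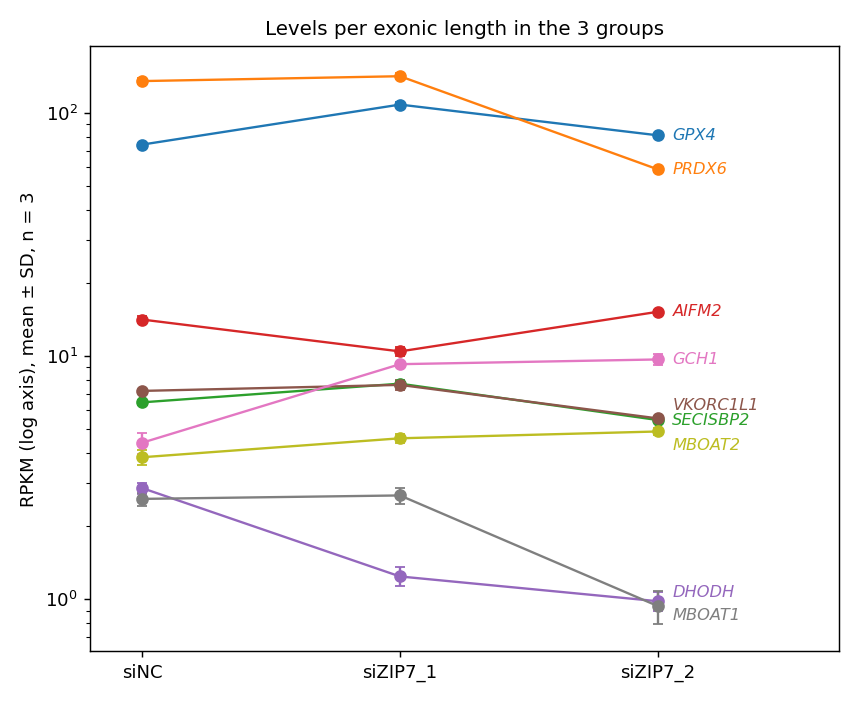
RPKM (log axis) of the 9 genes in siNC, siZIP7_1 and siZIP7_2 cells, each point the mean of 3 libraries with its SD and each line joining 1 gene. PRDX6 and GPX4 change places at the top with siZIP7_2, GCH1 rises from 4.41 to 9.28 and 9.70 RPKM, and DHODH falls from 2.87 to 1.24 and 0.983 RPKM.

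Each comparison was made with edgeR's quasi-likelihood test in a single fit of all libraries, and a gene is called where its p-value, adjusted over all 16761 genes, was under 0.05. With siZIP7_1, 6 of the 9 genes were called, 4 higher and 2 lower, where 70.7% of all genes tested were called. With siZIP7_2, 8 of 9 were called, 3 higher and 5 lower, against 77.8% of all genes. Between the siRNAs 7 of 9 differed, against 78.7% of all genes. These shares are near the background, so the count itself is not a result about these genes. In bulk RNA, fewer cells of a kind and less RNA per cell cannot be told apart. The libraries of siZIP7_1 and siNC did not overlap for 7 of the 9 genes (72.1% of all genes), those of siZIP7_2 and siNC for 9 (78.7%) and those of the siZIP7 groups for 8 (79.7%). Against a change of at least 1.5-fold (edgeR's glmTreat), 2 genes passed with siZIP7_1 (27.7% of all genes), 4 with siZIP7_2 (38.3%) and 2 between the siRNAs (40.6%). GCH1 and DHODH were those 2 with siZIP7_1, PRDX6 and MBOAT1 joined them with siZIP7_2, and PRDX6 and MBOAT1 were the pair that passed between the siRNAs. Both siRNAs share the siNC libraries as their control. GCH1, GPX4 and MBOAT2 were higher with both siRNAs (17.7% of all genes), DHODH was lower with both (20.8%), and SECISBP2 was called in opposite directions (18.7%).

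**Figure D2:**
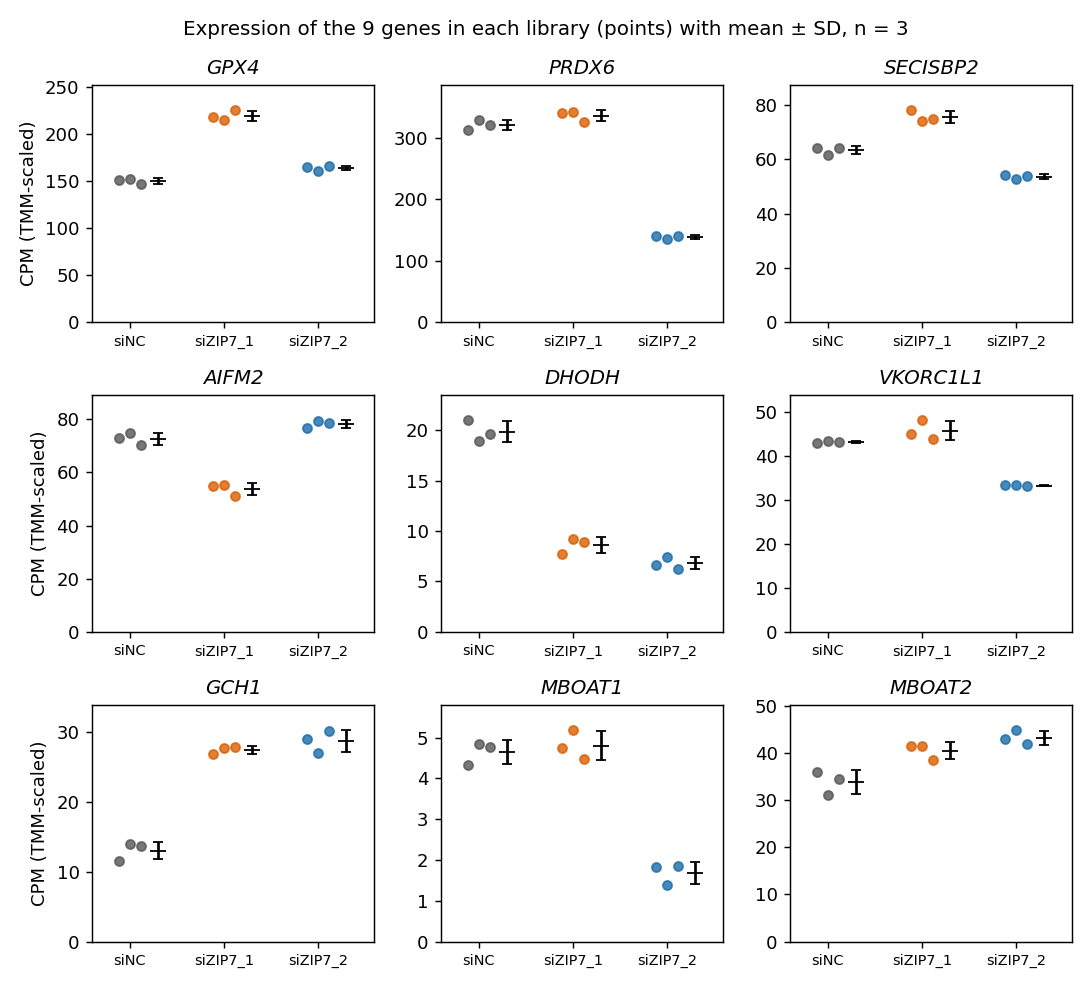
CPM of each gene in the 9 libraries (points, y axis from 0), with the mean and SD of each group (n = 3) beside them. GCH1 libraries lie between 11.5 and 13.9 CPM with siNC and at 26.7 CPM or above with both siRNAs, while PRDX6 and MBOAT1 drop with siZIP7_2 and overlap siNC with siZIP7_1.

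**Figure D3:**
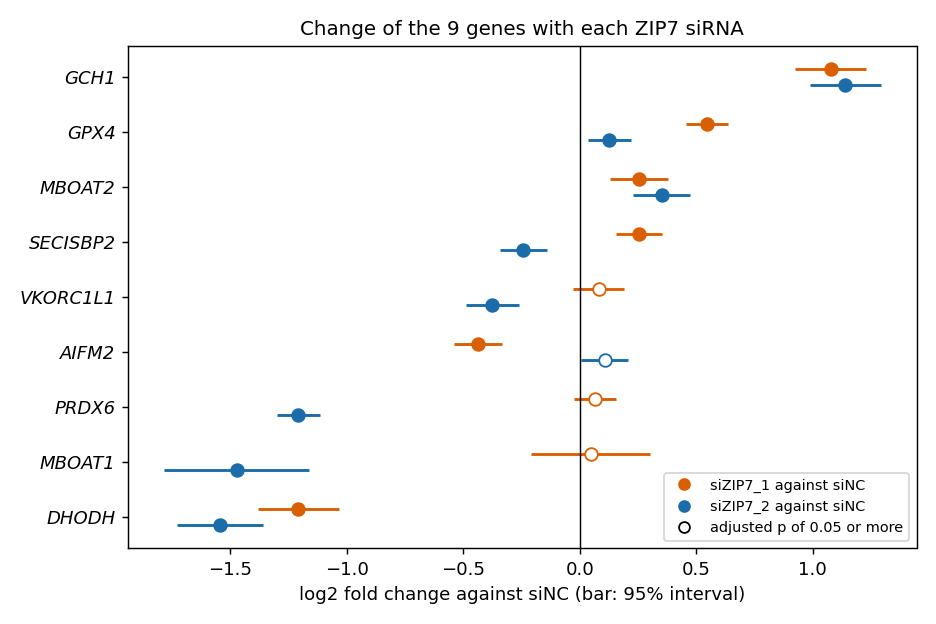
Log2 fold change of each gene against siNC (x axis) for siZIP7_1 and siZIP7_2, with the 95% interval from edgeR's standard error; filled points passed the adjusted threshold. GCH1 (1.08 and 1.14) and DHODH (-1.21 and -1.54) lie at the ends for both siRNAs, and SECISBP2 lies on opposite sides of 0.

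GPX4 (ENSG00000167468, chromosome 19, 1103926 to 1106791, plus strand) rose with both siRNAs, and more with siZIP7_1. Its libraries were at 150, 152 and 147 CPM with siNC, at 217, 214 and 225 CPM with siZIP7_1, and at 164.5, 161 and 165 CPM with siZIP7_2. All 6 siZIP7 libraries were above the highest siNC library, and the siZIP7 groups did not overlap. On the log2 scale GPX4 rose by 0.55 in siZIP7_1 cells (SE 0.0444, edgeR adjusted p = 5.46e-12), a 1.46-fold level. With siZIP7_2 it was 0.13 (SE 0.0447, edgeR adjusted p = 0.0115), a 1.09-fold level, and it was 0.08 with an adjusted p of 0.254 when no low-count filter was applied. The rise with siZIP7_2 was smaller than that with siZIP7_1 by a log2 difference of -0.42 (SE 0.0442, edgeR adjusted p = 9.76e-10).

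PRDX6 (ENSG00000117592, chromosome 1, 173477266 to 173488807, plus strand) encodes a peroxiredoxin that also reduces phospholipid hydroperoxides with glutathione. Its libraries were at 313, 329 and 320 CPM with siNC, at 339, 342 and 325 CPM with siZIP7_1, and at 141, 135 and 140.5 CPM with siZIP7_2. The siZIP7_1 libraries overlapped those of siNC, and the siZIP7_2 libraries lay below all others with none near siNC. The log2 fold change with siZIP7_1 was 0.07 (95% interval -0.025 to 0.16, edgeR adjusted p = 0.184). It passed the threshold with upper-quartile scaling (0.09, edgeR adjusted p = 0.0479). With siZIP7_2 PRDX6 fell by 1.21 on the log2 scale (SE 0.0458, edgeR adjusted p = 1.13e-19), to 0.433 of siNC, and the siRNAs differed by -1.27 (SE 0.0458, edgeR adjusted p = 1.82e-20).

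The paralogues of these peroxidases were followed as a list of 12 genes, of which 8 could be tested. With siZIP7_1, 1 was higher and 5 lower, where 34.8% of all genes were higher and 35.9% lower (median log2 fold change -0.20, against -0.0069 over all genes tested). With siZIP7_2, 4 were higher and 4 lower, where 38.5% and 39.3% of all genes were (median -0.11, against -0.0018). PRDX2, an abundant cytosolic peroxiredoxin, fell from a mean of 230 ± 8.56 to means of 204.5 ± 1.27 and 77.5 ± 3.88 CPM (SD, n = 3 per group), and 14.1% of its exonic length is overlapped by a gene on the other strand. PRDX5, found in mitochondria and peroxisomes, rose from a mean of 117 ± 1.65 to means of 185 ± 5.22 and 175 ± 9.84 CPM (SD, n = 3 per group). The mitochondrial PRDX3 fell from a mean of 236 ± 7.56 to means of 198.5 ± 11.9 and 176 ± 5.07 CPM (SD, n = 3 per group). PRDX1, the listed paralogue with the highest RPKM in siNC, was called in opposite directions, with log2 fold changes of -0.24 with siZIP7_1 and 0.19 with siZIP7_2.

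SECISBP2 (ENSG00000187742, chromosome 9, 89318506 to 89359662, plus strand) encodes the protein that recognises the SECIS hairpin printed above. Its libraries were at 64.3, 61.8 and 64.2 CPM with siNC, at 78.2, 74.2 and 74.8 CPM with siZIP7_1, and at 54.4, 52.7 and 53.8 CPM with siZIP7_2. The 3 groups did not overlap, with siZIP7_1 above and siZIP7_2 below siNC. SECISBP2 had log2 fold changes of 0.25 with siZIP7_1 (SE 0.0484, edgeR adjusted p = 3.21e-05) and -0.24 with siZIP7_2 (SE 0.0496, edgeR adjusted p = 6.88e-05). SECISBP2L, its paralogue, rose with both, from a mean of 49.3 ± 1.97 to means of 65.5 ± 2.35 and 64.4 ± 2.11 CPM (SD, n = 3 per group).

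The 11 other genes of selenocysteine synthesis, insertion and selenium supply were all tested. With siZIP7_1, 3 were higher and 5 lower (median log2 fold change -0.22), against 34.8% and 35.9% of all genes. With siZIP7_2, 4 were higher and 7 lower (median -0.17), against 38.5% and 39.3% of all genes. Across both siRNAs, 5 of the 11 were called in opposite directions (18.7% of all genes), 2 were lower with both (20.8%) and 1 was higher with both (17.7%). SARS1, the seryl-tRNA synthetase that first charges the selenocysteine tRNA, had the highest RPKM of the list in siNC and went from a siNC mean of 358 ± 11.7 to 176 ± 6.44 in siZIP7_1 and 464 ± 20.1 CPM in siZIP7_2 cells (SD, n = 3 per group). TRIT1, which modifies the anticodon loop of several tRNAs including that of selenocysteine, fell to log2 fold changes of -0.22 and -0.61. SEPHS1, a relative of the selenophosphate synthetase SEPHS2, fell by 0.49 and 0.13 on the log2 scale. LRP8, the receptor that takes up selenium-carrying selenoprotein P and chosen here after its values were seen, went from a siNC mean of 74.8 ± 3.24 to 26.0 ± 1.07 in siZIP7_1 and 140 ± 4.53 CPM in siZIP7_2 cells (SD, n = 3 per group). Genes on the other strand overlap 10.3% of its exonic length.

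Among the 24 other selenoprotein genes, 19 were tested. With siZIP7_1, 9 were higher and 2 lower (median log2 fold change 0.10), where 34.8% and 35.9% of all genes were. With siZIP7_2, 8 were higher and 9 lower (median -0.03), where 38.5% and 39.3% of all genes were. TXNRD1, the cytosolic thioredoxin reductase, had the highest RPKM of the list in siNC and rose with both siRNAs, by log2 fold changes of 0.26 and 0.64. SELENOS, an ER membrane protein of ER-associated degradation, rose from a mean of 55.6 ± 2.48 to means of 76.3 ± 1.78 and 75.7 ± 4.26 CPM (SD, n = 3 per group). SELENON, an ER protein linked to calcium handling, fell by 0.19 on the log2 scale with siZIP7_1 and by 1.41 with siZIP7_2. GPX3, the glutathione peroxidase whose codon is shown above and a gene picked after its values were seen, went from a siNC mean of 273 ± 6.596 to 84.6 ± 1.32 in siZIP7_1 and 324 ± 22.7 CPM in siZIP7_2 cells (SD, n = 3 per group). GPX1 averaged 140.5, 132 and 76.3 CPM in siNC, siZIP7_1 and siZIP7_2 cells, with a log2 fold change of -0.09 with siZIP7_1 (edgeR adjusted p = 0.116) and -0.88 with siZIP7_2. GPX4, GPX1 and GPX3 thus had different orders of the 3 groups.

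AIFM2 (ENSG00000042286, chromosome 10, 70098223 to 70132934, minus strand) encodes FSP1, which uses NAD(P)H to reduce coenzyme Q and vitamin K at membranes. Its libraries were at 73.0, 74.8 and 70.3 CPM with siNC, at 54.8, 55.4 and 51.1 CPM with siZIP7_1, and at 76.6, 79.3 and 78.8 CPM with siZIP7_2. The siZIP7_1 libraries were all below siNC, and the siZIP7_2 libraries all lay just above it. AIFM2 fell by 0.44 on the log2 scale with siZIP7_1 (SE 0.0506, edgeR adjusted p = 9.29e-09), to 0.740 of siNC. With siZIP7_2 the log2 fold change was 0.11 (95% interval 0.0048 to 0.21) and did not pass after adjustment (edgeR adjusted p = 0.0523), although it passed with other scalings, as with DESeq2's size factors (0.14, edgeR adjusted p = 0.0152). Without a low-count filter it was 0.05 (edgeR adjusted p = 0.496). The siRNAs differed by 0.54 (SE 0.0503, edgeR adjusted p = 6.99e-11).

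DHODH (ENSG00000102967, chromosome 16, 72008588 to 72027664, plus strand) sits in the inner mitochondrial membrane, where it passes electrons from dihydroorotate, an intermediate of pyrimidine synthesis, to coenzyme Q. Its libraries were at 21.02, 19.0 and 19.6 CPM with siNC, at 7.72, 9.21 and 8.88 CPM with siZIP7_1, and at 6.68, 7.47 and 6.27 CPM with siZIP7_2. Every siZIP7 library was below every siNC library, and the siZIP7_2 libraries were below those of siZIP7_1. DHODH had log2 fold changes of -1.21 with siZIP7_1 (SE 0.0856, edgeR adjusted p = 2.67e-13) and -1.54 with siZIP7_2 (SE 0.0896, edgeR adjusted p = 2.17e-15), which left 0.433 and 0.343 of siNC. The difference between the siRNAs was -0.34 (SE 0.098, edgeR adjusted p = 0.00282), from raw counts of 163 to 579 reads per library.

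VKORC1L1 (ENSG00000196715, chromosome 7, 65873166 to 65959563, plus strand) encodes a reductase of vitamin K and its epoxide. Its libraries were at 43.0, 43.6 and 43.1 CPM with siNC, at 45.1, 48.2 and 44.0 CPM with siZIP7_1, and at 33.5, 33.4 and 33.1 CPM with siZIP7_2. The siZIP7_2 libraries were the lowest of the 9, and those of siZIP7_1 lay just above siNC. The log2 fold change was 0.08 with siZIP7_1 (95% interval -0.028 to 0.19, edgeR adjusted p = 0.172). With siZIP7_2 VKORC1L1 fell by 0.38 on the log2 scale (SE 0.0552, edgeR adjusted p = 5.31e-07), and the siRNAs differed by -0.46 (SE 0.0546, edgeR adjusted p = 1.123e-08). Its paralogue VKORC1 averaged 12.2 ± 0.497, 12.2 ± 0.147 and 11.7 ± 0.485 CPM in the order siNC, siZIP7_1, siZIP7_2 (SD, n = 3 per group) and was called with neither siRNA, although other genes overlap 74.5% of its exonic length.

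The genes that make coenzyme Q, the substrate of AIFM2 and DHODH, were a list of 14, all tested. With siZIP7_1, 5 were higher and 7 lower (median log2 fold change -0.17), where 34.8% and 35.9% of all genes were. With siZIP7_2, 12 were lower and 1 higher (median -0.59, against -0.0018 over all genes), where 39.3% of all genes tested were lower and 38.5% higher. COQ3, a methyltransferase of the pathway, fell from a mean of 10.7 ± 1.48 to means of 7.68 ± 0.362 and 3.64 ± 0.263 CPM (SD, n = 3 per group). COQ9, which binds the lipid intermediate, fell from a mean of 32.7 ± 1.20 to means of 20.6 ± 1.73 and 16.1 ± 1.34 CPM (SD, n = 3 per group). COQ4, with the highest RPKM of the list in siNC, had log2 fold changes of -0.04 with siZIP7_1 (edgeR adjusted p = 0.552) and -0.83 with siZIP7_2. COQ10B, a coenzyme Q binding protein, was the 1 gene higher with both, from a mean of 29.3 ± 1.20 to means of 46.8 ± 4.75 and 53.5 ± 2.64 CPM (SD, n = 3 per group).

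Of the 4 other genes of the vitamin K cycle, 3 were lower with both siRNAs (20.8% of all genes) and VKORC1 was not called, with medians of -0.52 and -0.84. NQO1, a quinone reductase, fell from a mean of 337 ± 11.2 to means of 156 ± 10.9 and 173 ± 1.15 CPM (SD, n = 3 per group), with 17.7% of its exonic length overlapped by an antisense gene. GGCX, the carboxylase that uses vitamin K, fell from a mean of 133 ± 1.25 to means of 92.3 ± 3.54 and 66.8 ± 0.414 CPM (SD, n = 3 per group).

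DHODH acts in the synthesis of pyrimidines, not in their salvage. The pyrimidine list, with the salvage kinases UCK1 and UCK2 among its genes, held 7 other genes, all tested. With siZIP7_1, 5 were lower and 1 higher (median -0.24), where 35.9% and 34.8% of all genes were. With siZIP7_2, 7 were lower (median -0.76), where 39.3% of all genes were. The gene that was higher with siZIP7_1 was CTPS2, a CTP synthase, which averaged 8.22 ± 0.474, 15.3 ± 0.584 and 4.17 ± 0.520 CPM in siNC, siZIP7_1 and siZIP7_2 cells (SD, n = 3 per group). UCK1, a uridine-cytidine kinase, was not called with siZIP7_1 (log2 fold change 0.12, edgeR adjusted p = 0.076). CAD, which carries out the first steps of pyrimidine synthesis, fell from a mean of 254 ± 5.59 to means of 197 ± 8.10 and 52.6 ± 1.115 CPM (SD, n = 3 per group). UMPS, which acts directly after DHODH, fell from a mean of 45.3 ± 2.67 to means of 32.1 ± 1.54 and 15.6 ± 0.196 CPM (SD, n = 3 per group). UCK2, the paralogue of UCK1 in the salvage route, fell by 0.43 and 0.62 on the log2 scale. CMPK1, the kinase with the highest RPKM of the list, fell by 0.17 and 0.33. With siZIP7_1 the change of DHODH was larger than that of each of these genes, and with siZIP7_2 CAD changed more. The difference between these genes was not tested.

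Short promoter stretches of 4 of these members are shown because they hold the letters of known stress and growth elements. RefSeq promoter windows (GRCh38.p14, from 250 bases before to 50 after a start) were found for 6 of the 9 members, 9 windows in all. GCH1, MBOAT1 and PRDX6 are named only. The core of the antioxidant response element, TGACNNNGC on either strand, was in 13.3% of all 35116 windows and in those of AIFM2, VKORC1L1 and SECISBP2. The E-box CACGTG, the same on both strands, was in 7.26% of all windows and in those of DHODH and SECISBP2. Windows of 30 bases on the gene's strand follow, 5′ to 3′, with the matching letters in capitals, at chr10:70132828-70132857 (minus strand), chr7:65872854-65872883, chr16:72008573-72008602 and chr9:89318378-89318407 in that order.
AIFM2: cagcacgagtGCTGAGTCAcgccccgcccg
VKORC1L1: ccgagggttcGCCCAGTCAcccacagtggc
DHODH: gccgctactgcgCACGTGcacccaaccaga
SECISBP2: ccccactgcctcCACGTGctgcccgcgcag
The first pair holds the antioxidant core read on the other strand, 22 and 210 bases before the start, and the second pair the E-box, 159 and 110 bases before it. Distances are counted from the RefSeq start of each window, which for AIFM2 and DHODH lies inside the GENCODE span of the gene, so the DHODH E-box overlaps the first base of that span. The antioxidant core of SECISBP2 was in the window of another start, downstream of the one whose E-box is shown, 164 and 8 bases before that start. The C/EBP-ATF core TGATGNAA (3.62% of windows) and the ER stress response element (0.0769%), searched on either strand, had no match in the member windows. A match describes the letters and is not evidence of binding. Within the pairs, the log2 fold changes in siZIP7_1 cells were -0.44 for AIFM2 and 0.08 for VKORC1L1, and -1.21 for DHODH and 0.25 for SECISBP2. In siZIP7_2 cells they were 0.11 for AIFM2 and -0.38 for VKORC1L1, and -1.54 for DHODH and -0.24 for SECISBP2.

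GCH1 (ENSG00000131979, chromosome 14, 54842008 to 54902852, minus strand) encodes GTP cyclohydrolase, the rate-limiting enzyme of tetrahydrobiopterin synthesis. Its libraries were at 11.5, 13.9 and 13.6 CPM with siNC, at 26.7, 27.6 and 27.8 CPM with siZIP7_1, and at 28.96, 26.9 and 30.03 CPM with siZIP7_2. Every siZIP7 library was above every siNC library, and the siZIP7 groups overlapped each other. GCH1 had log2 fold changes of 1.08 with siZIP7_1 (SE 0.074, edgeR adjusted p = 1.32e-13) and 1.14 with siZIP7_2 (SE 0.0742, edgeR adjusted p = 3.00e-14), levels 2.11-fold and 2.20-fold those of siNC. A difference between the siRNAs was not detected (log2 difference 0.06, 95% interval -0.075 to 0.2, edgeR adjusted p = 0.3999). Raw counts were 318 to 887 reads per library.

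Of the other tetrahydrobiopterin genes, 7 were tested. With siZIP7_1, 1 was higher and 5 lower (median log2 fold change -0.44), where 34.8% and 35.9% of all genes were. With siZIP7_2, 1 was higher and 5 lower (median -0.84), where 38.5% and 39.3% of all genes were. The higher gene was not the same. With siZIP7_1 it was GCHFR, the feedback regulator of GCH1, which averaged 2.48 ± 0.513, 4.99 ± 0.506 and 1.29 ± 0.113 CPM in siNC, siZIP7_1 and siZIP7_2 cells (SD, n = 3 per group) and of whose exonic length 75.2% is overlapped by another gene. With siZIP7_2 it was SPR. QDPR, the dihydropteridine reductase of the main recycling route, fell from a mean of 37.7 ± 1.88 to means of 31.0 ± 2.37 and 20.96 ± 1.74 CPM (SD, n = 3 per group). PCBD2, a pterin dehydratase, fell by 0.44 and 1.45 on the log2 scale. SPR, which catalyses the last step of synthesis, went in opposite directions, from a siNC mean of 31.6 ± 0.536 to 19.8 ± 0.357 in siZIP7_1 and 39.7 ± 2.85 CPM in siZIP7_2 cells (SD, n = 3 per group).

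MBOAT1 (ENSG00000172197, chromosome 6, 20102145 to 20212399, minus strand) and MBOAT2 (ENSG00000143797, chromosome 2, 8852690 to 9003813, minus strand) encode lysophospholipid acyltransferases. MBOAT1 libraries were at 4.32, 4.86 and 4.77 CPM with siNC, at 4.73, 5.19 and 4.49 CPM with siZIP7_1, and at 1.82, 1.38 and 1.85 CPM with siZIP7_2. The siZIP7_2 libraries were far below the others, which overlapped. With siZIP7_1 the log2 fold change was 0.05 (95% interval -0.21 to 0.30, edgeR adjusted p = 0.746). With siZIP7_2 it was -1.47 (SE 0.152, edgeR adjusted p = 6.99e-10), which left 0.360 of siNC, and the siRNAs differed by -1.52 (SE 0.149, edgeR adjusted p = 2.19e-10). MBOAT1 had the fewest reads of the members, 42 to 151 per library, and hence the widest intervals.

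MBOAT2 libraries were at 35.9, 31.0 and 34.5 CPM with siNC, at 41.6, 41.4 and 38.4 CPM with siZIP7_1, and at 42.9, 44.8 and 41.8 CPM with siZIP7_2. All 6 siZIP7 libraries were above siNC. MBOAT2 rose by 0.26 on the log2 scale in siZIP7_1 cells (SE 0.0606, edgeR adjusted p = 0.00046) and by 0.35 in siZIP7_2 cells (SE 0.0606, edgeR adjusted p = 6.80e-06). A difference between the siRNAs was not detected in the main fit (log2 difference 0.09, 95% interval -0.026 to 0.22, edgeR adjusted p = 0.143), although it passed the threshold under other scalings. The paralogues thus responded differently to siZIP7_2, where MBOAT1 fell and MBOAT2 rose.

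Of the 8 other acyltransferases of the MBOAT family, 6 were tested. With siZIP7_1, 2 were higher and 2 lower (median 0.05), where 34.8% and 35.9% of all genes were. With siZIP7_2, 1 was higher and 3 lower (median -0.18), where 38.5% and 39.3% of all genes were. MBOAT7, which places arachidonate in phosphatidylinositol and had the highest RPKM of the list in siNC, went from a siNC mean of 389 ± 5.53 to 462 ± 15.3 in siZIP7_1 and 321 ± 17.9 CPM in siZIP7_2 cells (SD, n = 3 per group). LPCAT3, which puts polyunsaturated chains into phospholipids, went from a siNC mean of 29.6 ± 1.81 to 6.87 ± 0.528 in siZIP7_1 and 27.8 ± 1.39 CPM in siZIP7_2 cells (SD, n = 3 per group). LPCAT3 thus fell by 2.11 on the log2 scale with siZIP7_1, while siZIP7_2 gave -0.09 (edgeR adjusted p = 0.204), but EMG1 on the other strand overlaps 65.6% of its exonic length and the counting's strand setting is not given. PORCN, the acyltransferase of Wnt proteins, fell by 1.03 and 0.42 on the log2 scale.

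Enzymes linked to lipid peroxidation, with the lipoxygenase partner PEBP1, form another list, and 5 of its 9 genes passed the low-count filter. With each siRNA 3 were higher and 1 lower (medians 0.43 and 0.46), where 34.8% and 35.9% of all genes were with siZIP7_1 and 38.5% and 39.3% with siZIP7_2. POR and ALOXE3 were higher with both. CYB5R1, a cytochrome b5 reductase, was the other gene higher with siZIP7_1, at log2 fold changes of 0.74 and, with siZIP7_2, 0.03 (edgeR adjusted p = 0.674). ALOX12B, another epidermal lipoxygenase, was the other gene higher with siZIP7_2, from 18 to 30 reads per library against 1 to 4 with siNC and 0 or 1 with siZIP7_1. POR, the cytochrome P450 reductase, rose from a mean of 39.6 ± 0.601 to means of 53.3 ± 0.582 and 54.6 ± 0.888 CPM (SD, n = 3 per group). ALOXE3, an epidermal lipoxygenase, rose from a mean of 0.818 ± 0.0811 to means of 2.65 ± 0.332 and 18.6 ± 0.935 CPM (SD, n = 3 per group). PEBP1, a lipoxygenase partner and the highest of the list by RPKM in siNC, fell by 0.15 with each siRNA on the log2 scale. The lipoxygenase genes ALOX5, ALOX12, ALOX15 and ALOX15B did not pass the filter.

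**Figure D4:**
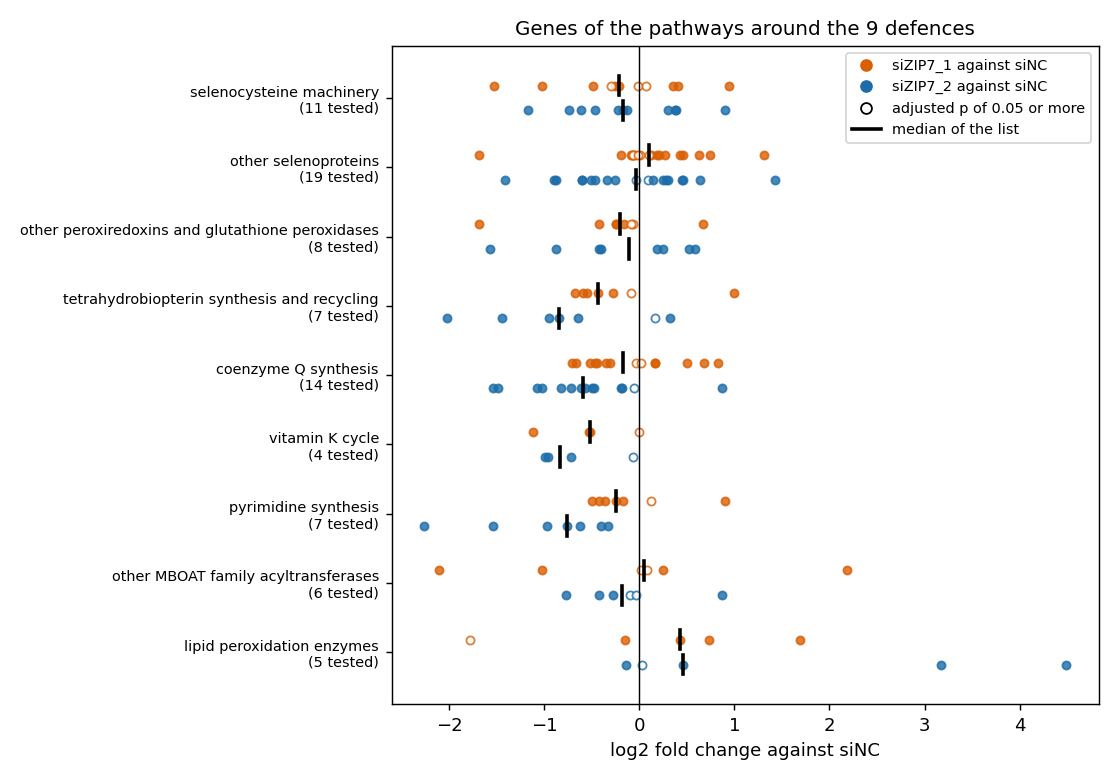
Log2 fold change against siNC (x axis) of every tested gene in the 9 pathway lists, for siZIP7_1 (upper row of each list) and siZIP7_2 (lower row), with filled points past the adjusted threshold and a bar at the median. With siZIP7_2 the medians of coenzyme Q synthesis (-0.59), pyrimidine synthesis (-0.76), the vitamin K cycle (-0.84) and the tetrahydrobiopterin list (-0.84) lie furthest below 0, and all but that of the lipid peroxidation enzymes (0.46) lie below it.

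Over the 9 lists together, 77 of 90 genes were tested. With siZIP7_1, 25 were higher and 33 lower, where 34.8% and 35.9% of all genes were. With siZIP7_2, 21 were higher and 48 lower, where 38.5% and 39.3% of all genes were. Between the siRNAs, 20 were higher and 44 lower with siZIP7_2, where 38.1% and 40.6% of all genes were. Other genes on one or the other strand overlap part of the exons of many genes named here. The overlap was 24.9% of exonic length for PRDX1, 14.1% for PRDX2 and 8.58% for SLC39A7. Counting set aside 2.66% to 2.91% of the reads of each library as ambiguous, so such genes may have lost reads. Whether they also hold reads of a neighbour was not tested, and the strand setting is not given.

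The pair of log2 fold changes of each member was set beside those of the 77 list genes, and the gene at the smallest Euclidean distance was taken as its nearest pattern. Selenoprotein genes made up 19 of these 77. For GPX4 the nearest was TXNRD2, the mitochondrial thioredoxin reductase and another selenoprotein, at 0.63 and 0.09 (distance 0.0893 on the log2 scale). Unlike GPX4, TXNRD2 was not called with siZIP7_2 (edgeR adjusted p = 0.212). For SECISBP2 the nearest was MBOAT7 (distance 0.0328), for VKORC1L1 UCK1 (0.0463), for MBOAT2 SELENOK (0.0856) and for AIFM2 PCBD1 (0.128). COQ5 was nearest to both MBOAT1 (0.0382) and PRDX6 (0.284). GCH1 and DHODH had no close neighbour in the lists, with COQ10B at a distance of 0.485 and NQO1 at 0.588. Among all genes tested, LRP6, LINC02210 and ZFYVE26 were nearest to GPX4, at distances of 0.0079, 0.0135 and 0.0176.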

How the data were processed

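RNA-seq libraries of siNC, siZIP7_1 and siZIP7_2 cells (3 each) were used, grouped by the treatment label. The authors deposited raw counts of single reads per Ensembl gene, with no normalization. The submitters' processing notes name Trim Galore 0.4.1, FastQC 0.11.2, STAR, HTSeq 0.6.1 and DESeq2 1.16.1. The genome build, annotation and strand setting are not given in the sources used here. Counter summary lines (10.3% to 14.1% of reads) were left out. Reads with several alignments were absent from the counts. Of the identifiers, 58275 were in GENCODE release 29 (GRCh38), which gave symbols, positions and exonic lengths.

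Counts were analysed with edgeR 4.0.16 in R 4.3.3 (TMM, low-count filter by group, quasi-likelihood test in 1 fit without a replicate block, Benjamini-Hochberg adjustment over 16761 genes, threshold 0.05). The biological coefficient of variation was 4.50%. SE is the log2 fold change divided by the square root of F. The fit was tested on simulated data in which far fewer genes were changed than were called here. That run cannot show how the scaling behaves under so wide a change. Alternatives were DESeq2 1.42.0, other scalings and filters, the replicate block, fits of 2 groups, glmTreat and leaving out each library. Chi-squared per gene between libraries of 1 group was 2.49 to 6.54, more than sampling noise gives.

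The members and lists were chosen with earlier results of these data known. Named genes were the members and SLC39A7, the paralogues VKORC1, SECISBP2L, LPCAT3 and MBOAT7, the list gene with the highest siNC RPKM, up to 3 genes per list with the largest mean change among those called in the same direction with both siRNAs, and the nearest patterns. LRP8, GPX1, GPX3, CTPS2, GCHFR, CYB5R1 and ALOX12B were named after their values were seen. Some genes that the rule takes are not reported here. Intervals are 95% intervals.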

Additional observations from a re-analysis of the deposited data

Results flagged for a closer look

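For 7 of the 9 members the effects of the siRNAs differed in edgeR's direct comparison of siZIP7_2 with siZIP7_1, and these log2 differences are listed because siRNAs against the same gene were compared. They were -0.42 for GPX4, -1.27 for PRDX6, -0.50 for SECISBP2, 0.54 for AIFM2, -0.34 for DHODH, -0.46 for VKORC1L1 and -1.52 for MBOAT1. SECISBP2 was called in opposite directions with the siRNAs, and DHODH and GPX4 in the same direction. Across all genes 78.7% differed between the siRNAs. Outside the gene counts, the share of reads on no gene had a median of 10.96% with siZIP7_2, above every siNC library, and was not used in any comparison.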

How the results depend on the processing

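Over 27 log2 fold changes of the members, 433 of 459 alternative values kept their direction and side of the threshold. With DESeq2 and with the replicate number as a block (replicate block), all 27 did. Libraries of the same number had correlations of -0.0493 to 0.0754 after removal of the group means. Those of different numbers had -0.125 to 0.113. A pairing by number was thus not detected, though 3 libraries per group cannot show that there was none. With the block, 6, 8 and 7 members and 58, 68 and 64 list genes were called in the comparisons of siZIP7_1 with siNC, of siZIP7_2 with siNC and of the siRNAs. The main fit called 6, 8 and 7 members and 58, 69 and 64 list genes, with 70.7%, 77.8% and 78.7% of all genes called. The share of all genes called with the block was not counted. Tested against 1.5-fold with glmTreat, the same counts were 2, 4 and 2 members and 14, 28 and 31 of the 77 list genes tested. Under that test 27.7%, 38.3% and 40.6% of all genes passed. GPX4 did not pass it in any comparison (log2 fold changes 0.55, 0.13 and -0.42). Without a low-count filter GPX4 with siZIP7_2 was at 0.08 and did not pass. MBOAT1 with siZIP7_1, which did not pass, turned to -0.0067 without siNC replicate 1 and to -0.011 without siZIP7_1 replicate 2, in a range of -0.011 to 0.098 over the libraries left out. Upper-quartile scaling moved the median gene with siZIP7_2 by 0.11, and the log2 fold change of AIFM2 was then 0.21 and passed. The same scaling brought PRDX6 with siZIP7_1 past the threshold (0.09), which made 7 members called in place of 6. Without a low-count filter AIFM2 with siZIP7_2 was at 0.05. AIFM2 with siZIP7_2 also passed without siNC replicate 2 (0.13) and without siZIP7_2 replicate 1 (0.13). MBOAT1, at 42 to 151 reads, is the member whose precision depth limits most.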
